A study of Mus musculus with 3 samples.

Results

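The collagen and extracellular matrix genes described here are the 44 collagen chain genes of the array together with 16 of 17 further matrix genes named by symbol, 60 of the 19937 genes that had a probe set with a single symbol. Fbn1, the fibrillin gene named in the same rule, was not analysed here. The rule takes members by symbol and uses no measured value, though it was written with earlier results of these data known. They were measured in mature medullary thymic epithelial cells (mTECs), the thymic stromal cells that show tissue antigens to developing T cells. The cells had been sorted as EpCAM positive, CD45 negative, low in Ly51 and high in MHC class II, and typically 3 mice aged 6 weeks were pooled for a library.

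There were 3 libraries, 1 for each genotype, on Affymetrix Mouse Gene ST arrays. The library labelled AireKO came from Aire–/– mice, which lack the regulator of tissue antigen expression in these cells, and its labels give no Sirt1 allele. The library labelled Sirt1cKO came from Sirt1fl/fl Foxn1-Cre mice, in which Cre driven by Foxn1, a gene of thymic epithelium, deletes the deacetylase gene Sirt1. The library labelled WT came from Sirt1fl/fl mice without Cre, so it shares the floxed allele with Sirt1cKO. All were given the strain C57b/6. With 1 library a group there are no replicates. Neither a p-value nor an error can be given, so a difference below is one between single libraries.

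The library labels were not borne out by the targeted genes. Aire had a log2 intensity of 11.55 in the library labelled AireKO, 11.24 in the library labelled Sirt1cKO and 11.97 in WT, and Sirt1 had 11.42, 11.27 and 11.40 in the same libraries. A probe set outside the deleted part checks nothing, and the description fields of both knockout libraries name each other's genotype. Here AireKO and Sirt1cKO stand for the libraries with those titles and genotype labels. With the labels of the knockouts exchanged, the differences of the 5 called members from WT keep their direction and those between the knockouts turn round. The first follows from both knockouts lying on the same side of the shared WT library, and is no check of the labels. The calls of Dcn, Postn and Fn1 against WT pass to the other genotype. Xist, expressed from the inactive X chromosome, had 6.75 in AireKO, within background, 11.46 in Sirt1cKO and 12.17 in WT. The Y-linked gene Eif2s3y had 9.75, 8.92 and, within background, 4.23 in the same order, so Sirt1cKO held both. The MHC class II gene H2-Ea, not expressed in C57BL/6 mice, had 13.23 in AireKO and lay within background in Sirt1cKO, at 5.90, and WT, at 5.60. Genotype and these differences cannot be told apart. The sorted population carried its defining marker, since Epcam stood at 10.49 in AireKO, 10.91 in Sirt1cKO and 11.01 in WT. Because RNA was pooled from sorted cells, a change in the number of cells that express a gene and a change in RNA per cell cannot be told apart.

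Collagens are secreted proteins of 3 chains wound into a triple helix. Fibrillar types form the rope-like fibrils of connective tissue, type IV forms the sheet of basement membranes on which epithelia rest, and the other types decorate or anchor these structures. Small leucine-rich proteoglycans sit on fibrils, and matricellular proteins such as SPARC, periostin and tenascin C modulate the contact of cells with the matrix. In the thymus most fibrillar collagen is made by mesenchymal cells, while epithelial cells contribute basement membrane components, and mTECs also transcribe at low level many genes of other tissues.

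A level at or below the 95th percentile of 1027 genes of olfactory receptors, used here as genes with little expression in thymus, was taken as within background. That percentile was 6.89 in AireKO, 6.34 in Sirt1cKO and 6.02 in WT on the log2 scale. By this measure 43 of the 60 members stood above background in AireKO, 51 in Sirt1cKO and 55 in WT, and 43 did so in all 3 libraries. Of 14560 genes above background in AireKO or WT, 11122 were so in both, beside 43 of 55 members. For Sirt1cKO and WT it was 13280 of 14594 genes, beside 51 of 55 members. The lower count in AireKO was thus shared by all genes, and counts of lists below are read beside these. A call, lower or higher, required 2-fold or more, with the background level in place of a value within background. Levels of different probe sets are not compared with each other.

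**Figure D1:**
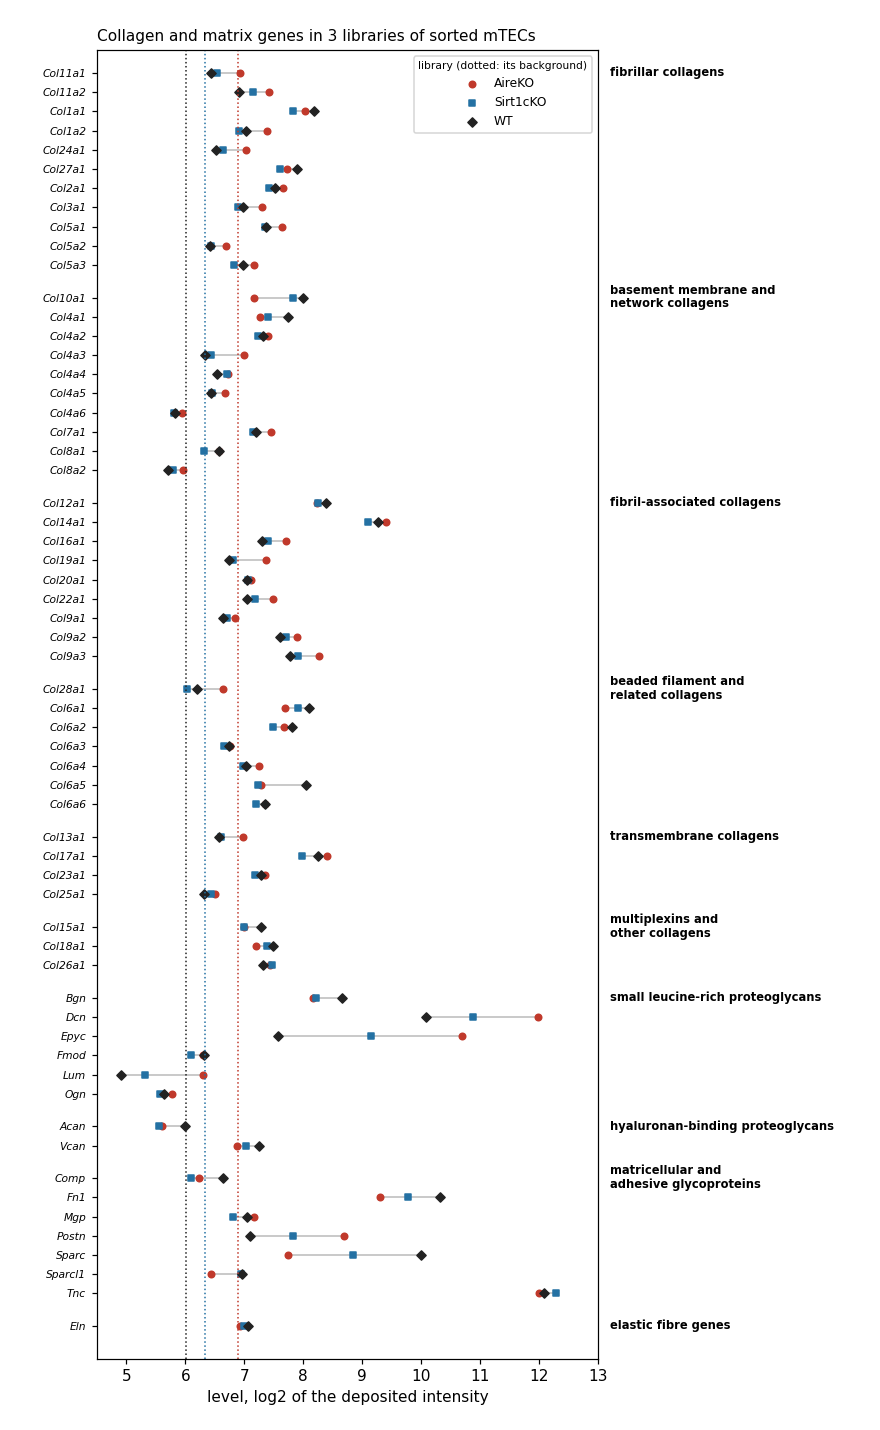
Level of each of the 60 members on the log2 intensity scale (x axis), 1 row per gene, grouped by structural class, with 1 point per library and dotted lines at the background of each library. Most collagens lie between 6 and 8 with the 3 points close together, while Epyc, Dcn, Postn, Sparc and Fn1, and Lum within background, span more than 1 log2 unit.

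In AireKO against WT, 5 members were called. The proteoglycan genes Epyc and Dcn and the periostin gene Postn were higher, by 8.68-fold, 3.72-fold and 3.03-fold. The osteonectin gene Sparc was 4.77-fold lower and the fibronectin gene Fn1 was 2.02-fold lower, the last just past the threshold. None of the 44 collagen genes was called in any of the 3 comparisons. These calls were 3 higher and 2 lower of 55 members above background in either library, against 2.1% higher and 6.33% lower, 8.43% together, among all 14560 such genes. The nearest members under the threshold were Col10a1 at -0.84 and Col6a5 at -0.78 on the log2 scale.

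Epyc encodes epiphycan, a small leucine-rich proteoglycan of growth plate cartilage. Its intensity was 1649.65 in AireKO, 564 in Sirt1cKO and 190.0 in WT, or 10.69, 9.14 and 7.57 on the log2 scale. All 3 values stood above background, with AireKO highest and Sirt1cKO between the others. AireKO exceeded WT by 3.12 and Sirt1cKO by 1.55 on that scale, and Sirt1cKO exceeded WT by 1.57. Among 12096 genes with a difference in AireKO minus WT, it ranked 7 from the top, and in Sirt1cKO minus WT it ranked 12 of 13797.

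Dcn encodes decorin, a proteoglycan that binds fibrillar collagen and transforming growth factor beta. Its log2 level was 11.98 in AireKO, 10.87 in Sirt1cKO and 10.08 in WT. It was called higher in AireKO against WT, at 1.90, and against Sirt1cKO, at 1.11, while Sirt1cKO stood 0.79 above WT, under the threshold. Postn encodes periostin, a secreted protein that binds integrins and collagen. It stood at 8.70 in AireKO, 7.82 in Sirt1cKO and 7.10 in WT. AireKO exceeded WT by 1.5997, which was called. Sirt1cKO exceeded WT by 0.72 and AireKO exceeded Sirt1cKO by 0.88, neither of which was called.

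Sparc encodes a collagen-binding glycoprotein also called osteonectin. Its intensity was 214 in AireKO, 459 in Sirt1cKO and 1021.5 in WT, the reverse order of Epyc. On the log2 scale these were 7.74, 8.84 and 9.9965. Sparc was called lower in AireKO against WT, at -2.25, in Sirt1cKO against WT, at -1.15, and in AireKO against Sirt1cKO, at -1.10. It ranked 39 from the bottom in AireKO minus WT and 103 in Sirt1cKO minus WT. Fn1 encodes fibronectin, an adhesive glycoprotein bound by integrins. It stood at 9.31 in AireKO, 9.77 in Sirt1cKO and 10.32 in WT, and the differences from WT were -1.02 and -0.55. After quantile normalization the first became -0.83 and after loess -0.80, so its call depends on scaling.

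**Figure D2:**
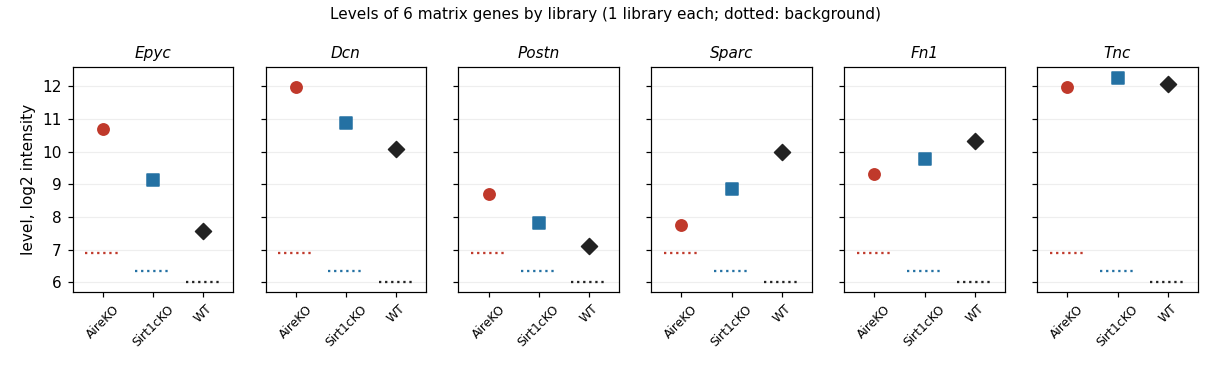
Log2 intensity (y axis) of Epyc, Dcn, Postn, Sparc, Fn1 and Tnc in AireKO, Sirt1cKO and WT, 1 point per library, with a dotted line at each library's background. Epyc, Dcn and Postn are highest in AireKO, Sparc and Fn1 are highest in WT, and the 3 Tnc points lie within 0.28.

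In Sirt1cKO against WT, 2 members were called, Epyc higher by 2.97-fold and Sparc lower by 2.22-fold. This is 1 of 55 in each direction, against 0.637% higher and 1.3% lower, 1.93% together, among 14594 genes above background in either library. In AireKO against Sirt1cKO, 3 members were called. Epyc was 2.93-fold and Dcn 2.15-fold higher, and Sparc was 2.14-fold lower. These were 2 and 1 of 51 members, against 0.825% higher and 2.07% lower, 2.89% together, among 13453 genes. Both comparisons with WT use the same WT library, so their directions are not independent of each other.

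At a threshold of 1.5-fold, AireKO against WT gave 4 members lower, with Col10a1 and Col6a5 added. The same comparison gave 5 higher, with Col19a1 added and Col4a3, which stood at 6.99 in AireKO, near the background of 6.89. All genes then gave 18.5% lower and 6.97% higher, 25.4% together, so calls at this threshold were common. Sirt1cKO against WT gave 2 members lower, Sparc and Col6a5, and 3 higher, Epyc, Dcn and Postn, against 6.98% and 3.47% of all genes, 10.4% together. AireKO against Sirt1cKO gave 2 lower, Sparc and Col10a1, and 3 higher, Epyc, Dcn and Postn, against 9.56% and 3.94%, 13.5% together. At 3-fold, AireKO against WT kept Sparc lower and Epyc, Dcn and Postn higher, against 1.29% and 0.488% of all genes, 1.78% together. At 3-fold no member was called in Sirt1cKO against WT, where all genes gave 0.137% lower and 0.0617% higher, 0.199% together. None was called in AireKO against Sirt1cKO either, against 0.372% and 0.156%, 0.528% together.

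Starts of transcription are listed here for Epyc and Sparc, the 2 members called in every comparison and in opposite directions, and for Postn. The starts available here included none for the other called members, Dcn and Fn1. The windows run from 250 bases before to 50 bases after an annotated start in RefSeq, build GRCm38.p6, and read 5′ to 3′ on the gene's strand. Capitals mark a TATA box match. They were searched on both strands for the TATA box TATAAA, the CCAAT box CCAAT, the GC box GGGCGG and the AP-1 site TGANTCA. The 4 motifs occur in 13.6%, 37.4%, 35.7% and 7.81% of the 32851 windows of that table.
Epyc window 1, chr10:97643818-97644117, + strand: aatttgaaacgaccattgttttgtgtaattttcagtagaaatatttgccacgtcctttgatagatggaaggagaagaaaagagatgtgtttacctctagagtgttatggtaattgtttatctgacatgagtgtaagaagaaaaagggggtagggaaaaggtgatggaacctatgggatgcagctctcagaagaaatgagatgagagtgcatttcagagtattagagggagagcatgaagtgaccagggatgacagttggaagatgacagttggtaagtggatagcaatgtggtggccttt
Epyc window 2, chr10:97646853-97647152, + strand: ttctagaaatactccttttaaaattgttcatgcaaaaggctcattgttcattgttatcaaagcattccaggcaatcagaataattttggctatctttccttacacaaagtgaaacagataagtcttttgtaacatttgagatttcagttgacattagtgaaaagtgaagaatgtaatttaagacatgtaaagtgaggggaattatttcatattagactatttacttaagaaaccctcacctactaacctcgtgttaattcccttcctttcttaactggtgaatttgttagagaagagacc
Postn window 2, chr3:54360857-54361156, + strand: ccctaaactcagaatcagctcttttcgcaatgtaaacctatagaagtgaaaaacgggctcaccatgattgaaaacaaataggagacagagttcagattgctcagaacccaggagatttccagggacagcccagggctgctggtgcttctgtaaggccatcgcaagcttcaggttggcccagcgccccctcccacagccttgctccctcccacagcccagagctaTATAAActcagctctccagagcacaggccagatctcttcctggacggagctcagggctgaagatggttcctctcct
Sparc window 1, chr11:55420031-55420330, - strand: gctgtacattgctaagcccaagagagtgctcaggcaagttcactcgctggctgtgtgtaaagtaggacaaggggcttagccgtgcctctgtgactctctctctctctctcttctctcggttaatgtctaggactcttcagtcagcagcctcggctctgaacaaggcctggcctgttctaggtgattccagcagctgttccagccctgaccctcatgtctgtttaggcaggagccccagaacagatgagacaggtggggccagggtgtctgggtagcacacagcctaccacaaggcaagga
Neither window of Epyc and not the single window of Sparc held any of the 4 motifs. The Postn window printed here held 1 TATA box. The other Postn window, which is not printed, held 1 CCAAT box and no TATA box, so the printed window does not stand for both. A match or its absence describes these letters and no factor.

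Dcn and Epyc lie near each other on chromosome 10, with the lumican gene Lum and the keratocan gene Kera, both small leucine-rich proteoglycan genes, between them. The targeted genes Aire and Sirt1 also lie on chromosome 10. Loss of a targeted gene and alleles linked to it cannot be told apart here, and neither was tested. Lum stood at 6.30 in AireKO, 5.32 in Sirt1cKO and 4.91 in WT, below background in each, so no fold is given. Kera stood at 5.46, 5.98 and 5.43 in the same libraries and was likewise within background. The 2 genes of this cluster above background were thus its outer ones. The flanking genes were chosen after their values were seen, and the 2 above background, Btg1 and Atp2b1, were highest in WT and lowest in AireKO. Btg1, an antiproliferative gene on the side of Dcn, stood at 11.25, 11.66 and 12.12, and the calcium pump gene Atp2b1, on the side of Epyc, at 10.33, 10.43 and 10.70. Ccer1, next to Epyc, was within background at 4.84, 4.52 and 4.46, so its order is not read.

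**Figure D3:**
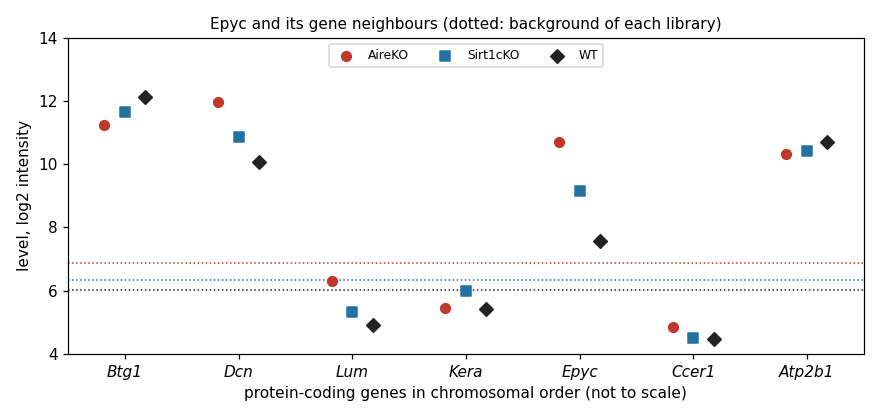
Log2 intensity (y axis) of protein-coding genes of the array around Epyc in chromosomal order (x axis, not to scale), 1 point per library, with dotted lines at each library's background. Dcn and Epyc are highest in AireKO, Btg1 and Atp2b1 are highest in WT, and Lum, Kera and Ccer1 lie within background.

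Of the remaining small leucine-rich proteoglycans only Bgn had a resolved difference, and it did not follow Epyc and Dcn. Bgn, the X-linked biglycan gene, stood at 8.16 in AireKO, 8.21 in Sirt1cKO and 8.66 in WT, with differences from WT of -0.50 and -0.46. The fibromodulin gene Fmod had 6.30, 6.10 and 6.32, above background in WT alone, and the osteoglycin gene Ogn had 5.78, 5.57 and 5.63, within background throughout. The class therefore held 3 members above background in all 3 libraries, of which 2 were called higher in AireKO than in WT and 1, Bgn, was not called.

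Tnc encodes tenascin C, a large glycoprotein of remodelling matrix. It stood far above background in every library, at 11.99 in AireKO, 12.28 in Sirt1cKO and 12.08 in WT, and its differences from WT were -0.09 and 0.20. Mgp, which encodes the calcification inhibitor matrix Gla protein, had 7.16, 6.81 and 7.05. The cartilage glycoprotein gene Comp was above background in WT, at 6.64, but not in AireKO at 6.22 or Sirt1cKO at 6.10. Sparcl1, a relative of Sparc, stood at 6.44, within background, in AireKO, at 6.94 in Sirt1cKO and at 6.96 in WT. It was at least 1.05-fold lower in AireKO, and its true difference is not resolved. The versican gene Vcan stood at 6.87, 7.03 and 7.25 and was at least 1.28-fold lower in AireKO than in WT. Aggrecan, Acan, was within background at 5.61, 5.56 and 5.99, and the elastin gene Eln had 6.92, 6.99 and 7.07.

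The collagen genes were dim and close to each other across libraries. Of the 44, 34 stood above background in AireKO, 40 in Sirt1cKO and 42 in WT. Their levels reached 9.39, 9.10 and 9.27 at most, in each case in Col14a1, a fibril-associated chain. Over the 34 above background in both AireKO and WT, differences ran from -0.84 to 0.66 with a median of 0.16, against -0.16 over all 11122 such genes. After loess, which removes a trend with brightness, the collagen median was 0.19 and that of all genes -0.03. The loess value was taken over 35 collagens, again those above background in both libraries, so it does not address that entry rule. Over the 40 collagens above background in Sirt1cKO and WT, differences ran from -0.82 to 0.23 with a median of -0.06, against -0.06 over all 13280 such genes. Entry to the AireKO median needs a level above 6.89 in AireKO but only above 6.02 in WT. A dim gene therefore enters only when its AireKO level is high, and most collagens are dim. The collagens left out were within background in AireKO. Their raw values there minus WT ran from -0.004 for Col8a1 to 0.45 for Col28a1 and are not read as differences. The class medians below share this limit. Its part in the medians, and that of the higher background in AireKO, was not tested. With 1 library each, differences under 2-fold are given as values only.

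Fibrillar collagens, the main fibres of connective tissue, had a median difference of 0.30 in AireKO over 10 genes and -0.08 in Sirt1cKO over 11. The type I chains, which assemble together, were Col1a1 at 8.02 in AireKO, 7.82 in Sirt1cKO and 8.18 in WT, and Col1a2 at 7.39, 6.91 and 7.03. They differed in sign, with AireKO minus WT at -0.16 for Col1a1 and 0.35 for Col1a2. Col3a1, of the fibrils of soft tissue, and its chromosomal neighbour Col5a2, of a fibril that limits fibre width, lie next to each other. Col3a1 stood 0.33 higher in AireKO than in WT, and Col5a2 was within background in AireKO, at 6.69, against 6.41 in WT, so no difference is given. The cartilage collagen gene Col2a1 had 7.66, 7.42 and 7.51.

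Basement membrane and network collagens had a median difference of 0.09 in AireKO over 5 genes and -0.04 in Sirt1cKO over 7. Each of the 3 type IV pairs is adjacent on its chromosome, with no protein-coding gene between. Col4a1 stood at 7.26 in AireKO, 7.41 in Sirt1cKO and 7.74 in WT, and Col4a2 at 7.41, 7.24 and 7.32, so the neighbours differed from WT by -0.48 and 0.09 in AireKO. Col4a3 stood at 6.99, 6.43 and 6.33, and Col4a4 at 6.72, within background, in AireKO, 6.71 in Sirt1cKO and 6.53 in WT. The X-linked pair had Col4a5 at 6.66, within background, in AireKO, 6.45 in Sirt1cKO and 6.43 in WT and Col4a6 within background at 5.94, 5.81 and 5.82. Col10a1, a marker of hypertrophic cartilage, had 7.16 in AireKO, 7.83 in Sirt1cKO and 7.999 in WT. Its difference of -0.84 in AireKO became a 2-fold call under median centring alone. Col7a1, of the fibrils that anchor epidermis, had 7.45, 7.15 and 7.19.

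Fibril-associated collagens had a median difference of 0.34 in AireKO over 8 genes and 0.07 in Sirt1cKO over 9. Col14a1 stood at 9.39 in AireKO, 9.10 in Sirt1cKO and 9.27 in WT, and Col12a1 at 8.23, 8.25 and 8.38. The cartilage type IX chains Col9a2, at 7.90, 7.70 and 7.61, and Col9a3, at 8.26, 7.91 and 7.78, were highest in AireKO and lowest in WT, while Col9a1 had 6.84, within background, 6.71 and 6.65. Col19a1 differed by 0.63 in AireKO and 0.07 in Sirt1cKO. None of these passed 2-fold.

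The type VI family, which forms beaded filaments, had a median difference of -0.14 in AireKO over 5 genes and -0.17 in Sirt1cKO over 6. Col28a1, grouped with it, was within background in AireKO and Sirt1cKO. The adjacent genes Col6a1 and Col6a2 stood at 7.70 and 7.67 in AireKO, 7.91 and 7.48 in Sirt1cKO, and 8.10 and 7.81 in WT. Col6a5 had 7.28 in AireKO, 7.23 in Sirt1cKO and 8.05 in WT, with both knockouts below WT by a like amount, at -0.78 and -0.82. Its second probe set, at 7.08, 6.92 and 7.30, gave -0.21 and -0.38, so the probe sets differed in size. Among transmembrane collagens, Col17a1, of the hemidesmosomes that fix basal epithelial cells, had 8.41, 7.97 and 8.24. The multiplexin gene Col18a1, source of endostatin, had 7.19, 7.38 and 7.48, and Col15a1 had 6.99, 6.99 and 7.28.

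**Figure D4:**
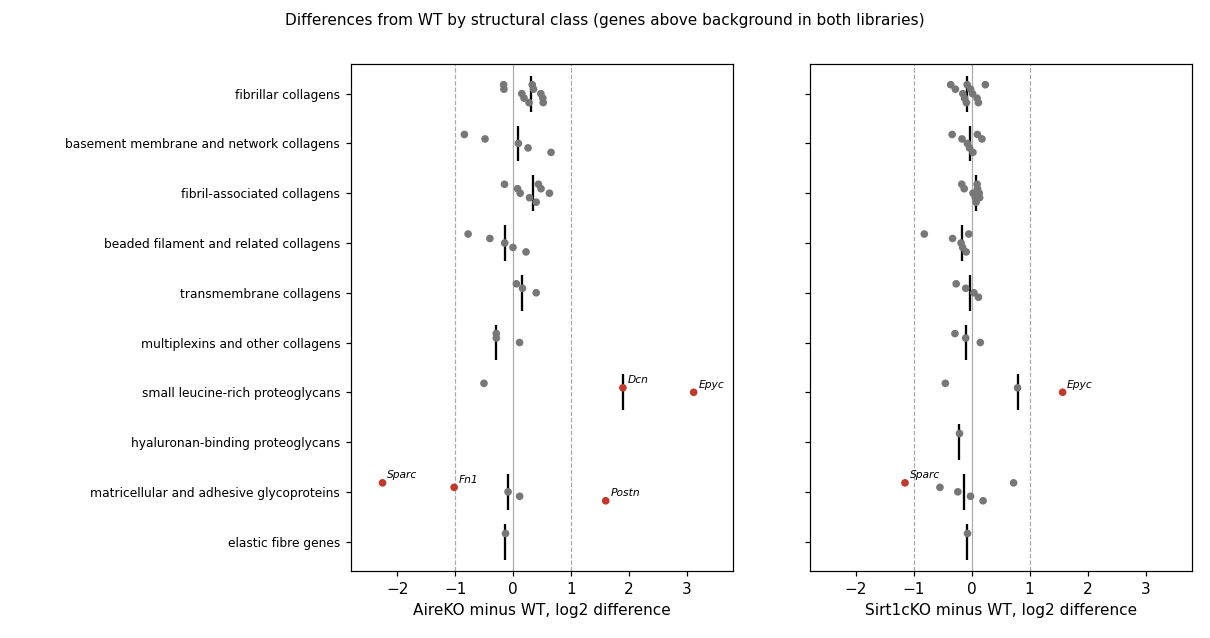
Log2 differences from WT (x axes) of members above background in both libraries compared, by structural class, for AireKO (left) and Sirt1cKO (right). Bars are class medians, dashed lines mark 2-fold and red points are called members; all collagen points lie inside the dashed lines, and Epyc, Dcn, Postn, Sparc and Fn1 lie outside them in AireKO.

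Other matrix genes were compared by list. Collagen processing enzymes modify, fold and cross-link the chains, and 1 of 23 measured in AireKO was called lower, 4.35% against 6.33% of all genes, and 0 higher. That was Ppib, which encodes the prolyl isomerase cyclophilin B, at 9.96 in AireKO, 10.96 in Sirt1cKO and 11.60 in WT, 3.13-fold lower in AireKO than in WT. The list's median difference was -0.43 over 15 genes, against -0.16 over all genes. In Sirt1cKO 2 of 23 were called lower, 8.70% against 1.3% of all genes, and 0 higher, with a median of -0.28 over 21 genes against -0.06. Serpinh1, the collagen chaperone gene, stood at 7.02, 6.85 and 7.87, with Sirt1cKO 2.02-fold lower than WT. The cross-linking enzyme gene Loxl3 stood at 7.53, 7.17 and 8.20, with Sirt1cKO 2.05-fold lower. Both calls were just past the threshold. In AireKO these genes differed from WT by -0.85 and -0.67, under the threshold.

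Laminins, nidogens and heparan sulfate proteoglycans, the partners of type IV collagen in basement membranes, had 1 of 13 called lower in each comparison with WT. That is 7.69%, against 6.33% of all genes in AireKO and 1.3% in Sirt1cKO. Nid1, which encodes the linker protein nidogen, stood at 6.66, within background, in AireKO, 6.89 in Sirt1cKO and 7.96 in WT. It was at least 2.10-fold lower in AireKO and 2.11-fold lower in Sirt1cKO. The proteoglycan gene Agrn had 7.86, 8.47 and 8.77 and was not called. The list medians of -0.12 in AireKO and -0.11 in Sirt1cKO lay near those of all genes.

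Matrix receptors had 3 of 21 called lower and 0 higher in AireKO, 14.3% against 6.33% of all genes. Sdc1, a cell surface heparan sulfate proteoglycan, stood at 8.27 in AireKO, 9.15 in Sirt1cKO and 9.69 in WT. Dag1, the laminin receptor dystroglycan, stood at 8.21, 8.81 and 9.44. Ddr1, a receptor tyrosine kinase activated by collagen, stood at 7.57, 8.03 and 8.69. In these 3 genes Sirt1cKO lay between AireKO and WT, and they were 2.67-fold, 2.36-fold and 2.18-fold lower in AireKO than in WT. The list's median difference was -0.57 over 16 genes in AireKO and -0.39 over 18 in Sirt1cKO. In Sirt1cKO 0 of 21 were called, against 1.93% of all genes. Itga6, an integrin chain of epithelial adhesion to laminin, had 10.64, 10.23 and 10.76.

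Matrix proteases and inhibitors had 1 of 14 called lower in each comparison with WT and 0 higher. That is 7.14%, against 6.33% of all genes in AireKO and 1.3% in Sirt1cKO. It was Timp1, an X-linked inhibitor of matrix metalloproteinases, at 8.77 in AireKO, 8.69 in Sirt1cKO and 9.77 in WT, just past 2-fold in both. Timp3, another inhibitor, had 11.09, 10.71 and 11.15. Of 10 transforming growth factor beta ligands, receptors and binding proteins none was called in any comparison, and Tgfb2 had 9.13, 9.32 and 9.04. Of all genes, 8.43% were called in AireKO against WT, 1.93% in Sirt1cKO against WT and 2.89% in AireKO against Sirt1cKO. A list of 10 is too short to be set apart from these shares.

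Markers of other cell types were read beside these values. Of 12 fibroblast and mesenchymal markers, 4 stood above background in AireKO, 6 in Sirt1cKO and 6 in WT, with summed intensities of 1336, 1587 and 1502. Sums here and below include markers within background, and the background was highest in AireKO. Pdgfra, which marks fibroblasts, was within background at 5.95, 5.91 and 5.91, as were Twist1, Prrx1, Dpt, Pi16 and Tcf21. Pdgfrb, a receptor of perivascular and mesenchymal cells, was called lower in AireKO, at 7.40 against 8.15 in Sirt1cKO and 8.42 in WT. It was 1 of 6 markers above background in either library, 16.7% against 6.33% of all genes. The sum was lowest in AireKO, where Dcn and Postn were highest, but the median log2 level of the 12 markers was highest there, at 6.43, against 6.1995 in Sirt1cKO and 6.09 in WT. These medians lie within background in AireKO and Sirt1cKO.

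Of 8 pericyte and smooth muscle markers all stood above background in each library, with summed intensities of 5623 in AireKO, 5031 in Sirt1cKO and 5920 in WT. Acta2, smooth muscle actin, was called lower in both knockouts, at 9.23 and 9.18 against 10.31 in WT, and Rgs5 had 11.83, 11.69 and 11.66. The call of Acta2 is 1 of 8, 12.5%, against 6.33% of all genes lower in AireKO and 1.3% in Sirt1cKO. Endothelial markers had 3, 7 and 9 of 11 above background and sums of 1209, 1256 and 1091. None was called in either comparison with WT, against 8.43% of all genes in AireKO and 1.93% in Sirt1cKO. Tek, the angiopoietin receptor, had 7.98, 8.35 and 7.71.

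Of 10 chondrocyte markers, 4 stood above background in AireKO, 5 in Sirt1cKO and 8 in WT, with sums of 5013, 6749 and 4590. Ucma, a cartilage matrix gene, had 11.75, 12.07 and 11.24, and Cnmd, the chondromodulin gene, was called lower in AireKO, at 7.81 against 9.02 in Sirt1cKO and 8.89 in WT. Cnmd was 1 of 8 markers above background in either AireKO or WT, 12.5% against 6.33% of all genes. Most of each sum came from Ucma, with intensities of 3453 in AireKO, 4289.98 in Sirt1cKO and 2419 in WT, so the order of the sums is mainly that of 1 gene. The part of any cell type in the matrix differences was not tested.

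Thymic epithelial markers all stood above background, with sums of 26162 in AireKO, 28970 in Sirt1cKO and 38551 in WT. Of these 8 markers 3 were called lower in AireKO, 37.5% against 6.33% of all genes, namely Cdh1, Krt5 and Foxn1, at -1.22, -1.09 and -1.04. Krt5 and Foxn1 lay near the threshold, as do Prss16 and Dll4 below. Calls of the genes in these lists were not checked under other scalings. Cd80, a costimulatory ligand of mature mTECs, went the other way, at 12.58 in AireKO, 12.18 in Sirt1cKO and 11.82 in WT. H2-Aa, an MHC class II chain, had 13.05, 13.04 and 13.70. Cortical markers gave sums of 6997, 7562 and 8687, and 3 of 6, Ctsl, Prss16 and Dll4, were called lower in AireKO, at -1.54, -1.11 and -1.03, against 6.33% of all genes, while Ccl25 had 12.46, 12.46 and 12.53. Thymocyte markers gave 1640, 1664 and 1307, and Cd3g had 8.48, 8.38 and 7.93. None of the 6 above background was called in either comparison with WT, against 8.43% of all genes in AireKO and 1.93% in Sirt1cKO. In AireKO, where Sparc and Fn1 were called lower, 7 of the 8 thymic epithelial markers stood below WT and 1, Cd80, above it. Among all genes above background in both libraries, 6894 of 11122 stood below WT. The part of this in the values of Sparc and Fn1 was not tested.

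**Figure D5:**
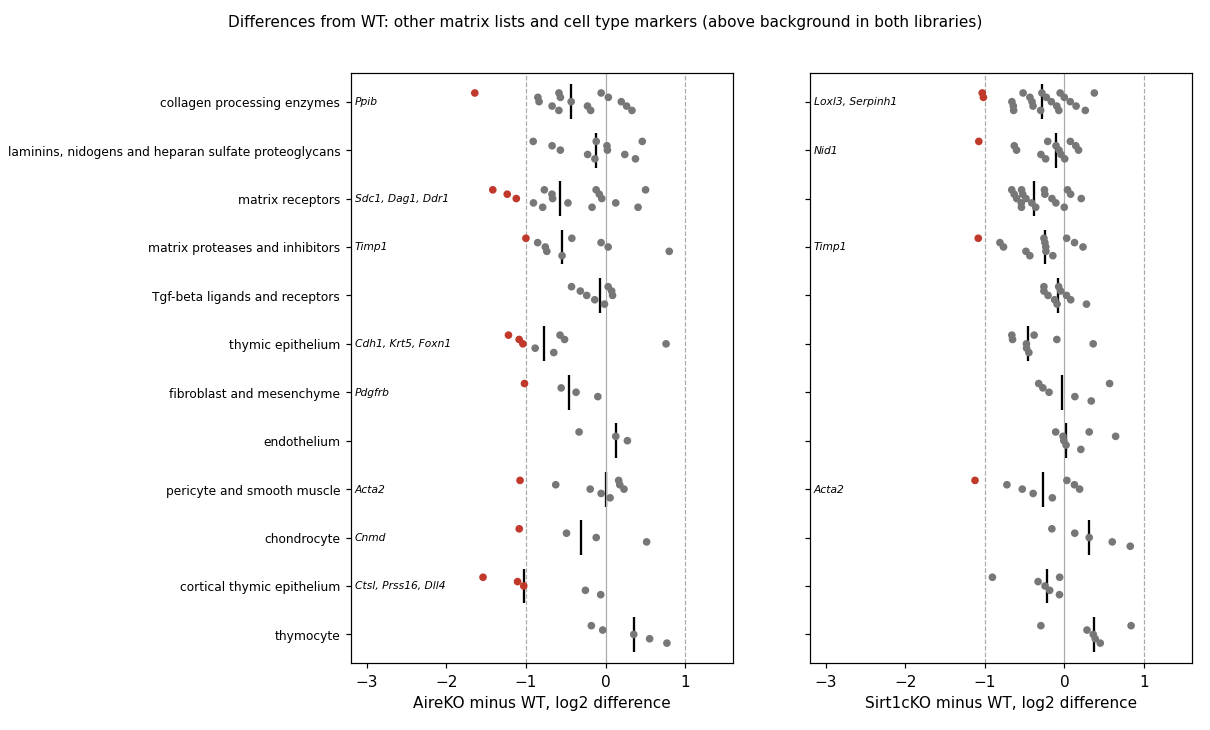
Log2 differences from WT (x axes) of genes above background in both libraries compared, by list, for AireKO (left) and Sirt1cKO (right), with list medians as bars and dashed lines at 2-fold. Red points are called genes, named at the left of each panel. All of them are lower than WT, and Nid1 in AireKO is called by a bound and not drawn.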

How the data were processed

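Libraries were grouped by title and genotype. Per the design text, amplified RNA was hybridised to arrays, and the values deposited by the authors are linear intensities, 1 per probe set. The submitters' processing notes name RMA, without its version or annotation, and how linear values followed from it is not stated there. Log2 was taken here with no further normalization. Median intensities were 116 in AireKO, 111 in Sirt1cKO and 108 in WT.

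The platform annotation paired 21640 of 34760 probe sets with a single symbol. Another 1321 had several symbols and were left unnamed, and 11799 had no symbol listed. The probe set with the highest mean was kept per gene, and 2 members had more than 1. Entrez identifiers of 99.6% of single-symbol probe sets matched the GRCm38.p6 gene table, which gave order on chromosomes. No other column was present. Calls are differences of at least 2-fold. A value within background, the 95th percentile of olfactory receptor genes, was replaced by that level, and a pair that stayed unresolved was not called. Medians take genes above background in both libraries.

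No test was possible with 1 library per group. Members and lists were chosen with earlier results of these data known. Named genes were all called members, the collagens of chain pairs, members near the threshold, the members brightest in WT and, per list, called genes and the brightest in WT. Further members, Xist, Eif2s3y and the flanking genes were added. Alternatives were quantile normalization, loess with a span of 0.3, median centring, thresholds of 1.5-fold and 3-fold, a 99th percentile background, no bounds, averaged probe sets and exchanged labels. The code was tested on simulated data. Python 3.11.15, numpy 2.4.6, pandas 2.3.3, statsmodels 0.14.6 and matplotlib 3.10.9 were used.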

Additional observations from a re-analysis of the deposited data

How the results depend on the processing

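No paired analysis was possible because each genotype has 1 library, and for the same reason no library could be left out. Of the summary values under the alternatives, 73 stayed within 1.5 times of a count or 0.1 of a median, 25 moved further and 4 changed sign. Among processing choices only median centring in AireKO minus WT changed a sign, and the other sign changes came from exchanged labels. For the differences of the 5 called members, 90 stayed, 7 fell under 2-fold, 3 rose past it and 5 changed sign, the last under exchanged labels. Scaling moved the median difference of all genes in AireKO minus WT by 0.11 with quantile normalization, 0.13 with loess and -0.16 with median centring. It moved the split of all called genes too, which was 922 lower and 306 higher as reported, 655 and 396 after quantile normalization, 614 and 410 after loess and 1454 and 198 after median centring. Epyc and Sparc kept their direction and their 2-fold calls against WT under all 3 scalings, and Dcn and Postn did so in AireKO minus WT.

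In AireKO minus WT, members called lower numbered 1 after quantile normalization and 1 after loess, both without Fn1. They numbered 4 at 1.5-fold and 1 at 3-fold, and members called higher 5 at 1.5-fold. Collagens called numbered 1 after median centring, which was Col10a1, and 4 at 1.5-fold, where 25.4% of all genes were called. The members' median difference of 0.12 became -0.041 after median centring. In Sirt1cKO minus WT, members called lower numbered 2 at 1.5-fold and 0 at 3-fold, members called higher 3 and 0, and collagens called 1 at 1.5-fold, where 10.4% of all genes were called. In AireKO minus Sirt1cKO, members called lower numbered 0 after loess, 2 at 1.5-fold and 0 at 3-fold, members called higher 1 after median centring and 0 at 3-fold, and collagens called 1 at 1.5-fold. Sparc stood at -0.94 after loess there and Dcn at 0.99 after median centring. The members' median of 0.24 became 0.13 after median centring. The cause of the smaller counts was not tested.

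With the labels of AireKO and Sirt1cKO exchanged, AireKO minus WT had 1 member lower and 1 higher with a median of -0.076, and Sirt1cKO minus WT had 2 lower and 3 higher with a median of 0.12. AireKO minus Sirt1cKO then had 2 lower and 1 higher with a median of -0.24, and its differences were turned, to -1.55 for Epyc, -1.11 for Dcn, -0.88 for Postn, 1.1007 for Sparc and 0.47 for Fn1. The signal over background limits the dim members, since 5 of the 60 lay within background in all 3 libraries.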
